A study of Homo sapiens with 6 samples.

Results

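SREBF1 and 9 enzymes of fatty acid synthesis, elongation and desaturation were followed in HCCLM3-SR cells, a derivative of the human hepatocellular carcinoma line HCCLM3 that resists sorafenib. The members were chosen by gene symbol with earlier results of these data known, and all 10 were found among the 38637 rows of the gene expression table. They are SREBF1, FASN, ACACA, ACACB, SCD, ELOVL6, ACLY, ACSS2, FADS1 and FADS2. Polyadenylated RNA was sequenced (PolyA-Seq) in 2 groups of 3 libraries. The cDCBLD2 knockdown group received siRNA to cDCBLD2, a circular RNA made from the DCBLD2 gene, and the control group received control siRNA. Both groups received 5 µM sorafenib, a multikinase inhibitor, and the siRNA was applied for 3 days, so cells without sorafenib and sensitive parental cells are outside this comparison. A single cell line and 1 siRNA against cDCBLD2 were used. The labels number the replicates of each group from 1 to 3 without saying whether they came from separate cultures, so the p-values measure the spread between these libraries, which may be technical. In bulk samples such as these, fewer cells of a kind and less RNA per cell cannot be told apart.

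Fatty acid synthesis turns citrate and acetate carbon into acetyl-CoA, carboxylates it to malonyl-CoA, and builds palmitate on the multifunctional enzyme FASN. Elongases and desaturases then lengthen the chain and insert double bonds. SREBP1, the product of SREBF1, is made as a membrane precursor, is escorted by SCAP from the endoplasmic reticulum to the Golgi, is cut there by the site-1 and site-2 proteases, and enters the nucleus to switch on these genes. INSIG proteins hold SCAP in the endoplasmic reticulum when sterols are plentiful. SREBP2 follows the same route and acts mainly on cholesterol synthesis. In liver, where lipogenesis is a central function, and in many hepatocellular carcinomas, this set of genes is known to be active. Activation of SREBP1 is by cleavage, so its mRNA does not give the amount of active protein.

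The recovered depth was 17492673 to 23064302 reads per library, a lower bound. Replicate 1 was the shallowest library of each group, at 17512981 reads after knockdown and 17492673 in control cells. The hepatocyte check was mixed. KRT8 and KRT18, keratins of simple epithelia, were at 2999 to 4413 TPM and 1800 to 2555 TPM. Their log2 fold changes were 0.32 and 0.26 (limma adjusted p = 0.126 and 0.197, or 0.00669 and 0.00954 with the replicate number as a block). ALB, which encodes albumin, was at 0.189 to 1.58 TPM, and 4 of the 10 hepatocyte markers had a mean under 1 TPM. The summed level of all 10 hepatocyte markers was 5864.5 to 7025.4 TPM after knockdown and 4858.4 to 5677.1 TPM in control cells. Over the 8 markers without the keratins the sums were 57.0 to 64.2 TPM and 59.6 to 61.1 TPM. Of 11 markers of other cell types, 5 had a mean under 1 TPM and none was at 0 in every library, with sums of 149 to 166 TPM after knockdown and 124 to 154 TPM in control cells, most of it CD68. Without CD68, KRT19, EPCAM and VIM the other 7 of these markers summed to 12.9 to 22.9 TPM after knockdown and 9.79 to 12.3 TPM in control cells, with no overlap. COL1A1, a fibroblast collagen named after its values were seen, was at 11.2, 3.61 and 3.64 TPM after knockdown and 3.35, 1.13 and 2.15 TPM in control cells, with a log2 fold change of 1.06 (limma adjusted p = 0.196, or 0.0132 with the block). The part of these markers in the results was not tested. DCBLD2, the host gene, had 58.1, 25.9 and 31.6 TPM in knockdown replicates 1, 2 and 3, against 71.5, 48.5 and 50.7 TPM in the controls. Its log2 fold change was -0.61 (limma adjusted p = 0.253, or 0.0139 with the block). These gene values mix the linear mRNA with any reads from the circular RNA.

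The promoters are shown because the members share a known activator while their values differed in direction and size. They are RefSeq sequences on GRCh38.p14 from 250 bases before to 50 bases after the annotated start, written 5′ to 3′ on the strand of the gene, with matches to an NF-Y box (CCAAT) or a GC box (GGGCGG) on either strand in capitals. NF-Y and SP1, which bind these motifs, are known partners of SREBP at its target promoters. SREBF1, SCD, ELOVL6, ACSS2 and ACACB are given, the last as the member without a lower mean.
SREBF1 promoter (chr17:17836937-17837236, minus strand): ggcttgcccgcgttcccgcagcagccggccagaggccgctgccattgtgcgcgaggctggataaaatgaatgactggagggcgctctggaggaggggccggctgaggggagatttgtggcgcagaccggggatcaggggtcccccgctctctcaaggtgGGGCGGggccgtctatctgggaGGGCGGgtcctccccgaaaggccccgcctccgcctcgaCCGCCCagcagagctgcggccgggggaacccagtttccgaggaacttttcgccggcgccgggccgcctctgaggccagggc
SCD promoter (chr10:100346983-100347282, plus strand): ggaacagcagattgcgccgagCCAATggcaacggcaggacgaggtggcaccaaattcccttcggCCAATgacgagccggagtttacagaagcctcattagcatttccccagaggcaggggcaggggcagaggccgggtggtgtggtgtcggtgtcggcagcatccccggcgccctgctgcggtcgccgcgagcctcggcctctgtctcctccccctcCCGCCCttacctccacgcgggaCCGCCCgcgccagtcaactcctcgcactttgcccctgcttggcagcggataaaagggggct
ELOVL6 promoter (chr4:110198566-110198865, minus strand): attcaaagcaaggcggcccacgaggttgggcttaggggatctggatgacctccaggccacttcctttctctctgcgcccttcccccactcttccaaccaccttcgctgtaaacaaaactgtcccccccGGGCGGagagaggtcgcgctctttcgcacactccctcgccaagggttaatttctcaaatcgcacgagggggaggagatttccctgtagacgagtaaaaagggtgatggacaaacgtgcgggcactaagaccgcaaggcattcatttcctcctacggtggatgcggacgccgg
ACSS2 promoter (chr20:34874739-34875038, plus strand): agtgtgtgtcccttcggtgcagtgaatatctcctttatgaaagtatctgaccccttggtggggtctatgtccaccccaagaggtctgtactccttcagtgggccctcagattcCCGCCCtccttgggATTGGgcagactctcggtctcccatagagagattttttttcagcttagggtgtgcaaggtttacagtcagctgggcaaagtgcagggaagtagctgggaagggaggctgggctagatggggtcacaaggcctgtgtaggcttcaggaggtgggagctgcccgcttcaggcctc
ACACB promoter (chr12:109116337-109116636, plus strand): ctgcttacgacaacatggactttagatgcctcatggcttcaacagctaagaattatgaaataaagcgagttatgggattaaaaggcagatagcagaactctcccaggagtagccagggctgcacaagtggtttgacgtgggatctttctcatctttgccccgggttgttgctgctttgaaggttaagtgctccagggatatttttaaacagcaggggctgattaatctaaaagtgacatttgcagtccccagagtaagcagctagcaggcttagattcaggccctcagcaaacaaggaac
The window of a promoter was found for 9 of 10 members, FASN being the other. An NF-Y box was found in 3 of these 9 first-listed windows, those of SCD, ACLY and ACSS2, against 34.6% of 35116 promoters of the same length. A GC box was found in 7 of 9, against 45% of promoters, and the windows of ACACB and FADS2 were the ones without. The sterol regulatory element written as TCACNCCAC was in 0 of 9 windows and in 1.13% of promoters, and the E-box CACGTG was in 0 of 9 and in 7.26% of promoters. Later listed starts can differ. Start 2 of ACACB held 2 NF-Y boxes and 3 GC boxes, and start 2 of FADS2 held 1 of each. Starts 2 and 3 of ACACA held 1 and 2 NF-Y boxes, while start 2 of ACSS2 held no NF-Y box. The 35116 promoters count every listed start, so they are not a like set for the first-listed windows. No match says only that these letters are not in this window, and the start used by the cells was not measured.

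The study examined cDCBLD2 together with the microRNA miR-345-5p, so matches to its seed (bases 2 to 8, in capitals) were looked for in the members' transcripts.
hsa-miR-345-5p (chr14:100307876-100307897, plus strand): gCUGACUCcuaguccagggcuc
The 7-base match GAGTCAG was present in the coding sequence or 3′ UTR of 5 of 10 members, against 22.2% of 11536 genes tested with a coding transcript. Longer transcripts have more room for a match, and the transcripts of the members were 3065 to 9961 bases long. ACACA, ACSS2, FADS1, SCD and SREBF1 held a match, and FASN, ACACB, ELOVL6, ACLY and FADS2 held none. Matches to the seed are in capitals in these windows, with the coordinates of the match on GRCh38 and exons counted in GENCODE release 29.
SREBF1 coding sequence, exon 3 of 20 (chr17:17820234-17820240, minus strand): gtatcaaggaaGAGTCAGtgccactgagc
SCD 3′ UTR, exon 6 of 6 (chr10:100362966-100362972, plus strand): gtgccccgcctGAGTCAGtgctctcagct
SCD 3′ UTR, exon 6 of 6 (chr10:100363086-100363092, plus strand): cctgttccctgGAGTCAGggtgaactgca
FADS1 coding sequence, exon 12 of 12 (chr11:61802446-61802452, minus strand): actcactaaagGAGTCAGggcagctctgg
ACACA coding sequence, exon 43 of 56 (chr17:37155734-37155740, minus strand): agattataagaGAGTCAGtgctctcaact
ACSS2 coding sequence, exon 16 of 18 (chr20:34926131-34926137, plus strand): cagcagaggtgGAGTCAGcacttgtggaa
ACACA and FADS1 held 1 further match each in the 3′ UTR. A match is not a measured binding site.

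By level, the members spanned more than 100-fold. In control cells SCD and FASN were the highest of the 10, at 776 ± 37.0 TPM and 726 ± 29.3 TPM (SD, n = 3), and the values of the 2 genes overlapped. FADS2 (222 ± 9.63 TPM) and SREBF1 (213 ± 20.7 TPM) followed and also overlapped each other. Then came ACLY at 179 ± 8.34 TPM, FADS1 at 101 ± 2.09 TPM, ACACA at 43.9 ± 2.48 TPM, ACSS2 at 33.9 ± 1.85 TPM, ELOVL6 at 10.0 ± 1.5 TPM and ACACB at 4.94 ± 0.738 TPM, with no overlap between neighbours in control cells from ACLY down. After knockdown ELOVL6 and ACACB overlapped. Together the 10 genes held 0.231%, 0.227% and 0.235% of all TPM in control replicates 1, 2 and 3 and 0.144%, 0.189% and 0.185% in the knockdown replicates. The 9 enzymes together were at 73.3% of their control level. FASN and SCD made up 64.9% to 65.1% of the members' TPM in control cells and 62.1% to 62.9% after knockdown.

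After cDCBLD2 knockdown, 8 of the 9 enzymes were lower in every knockdown library than in every control library, while SREBF1 itself and ACACB overlapped between the groups. The 8 lower enzymes were at 52.0% (ELOVL6) to 86.8% (ACLY) of their control mean. Groups that did not overlap, with the knockdown lower, were found for 22.3% of the 13980 genes tested, and with the knockdown higher for 9.58%. With no block, 0 of 10 members passed an adjusted p of 0.05 (limma on log2(TPM + 1), Benjamini-Hochberg adjustment over all genes tested), against 0.880% of genes in either direction, and 8 of 10 were lower at an unadjusted p under 0.05, against 19.4% of genes. Without knockdown replicate 1, 7 of 10 members were called lower, against 19.8% of genes. Without any other single library 0 members were called, with 6 to 8 at an unadjusted p under 0.05, and 0 of all 13980 genes were called in those 5 fits, so these zeros say nothing about the members. Same-numbered libraries of the 2 groups co-varied, most strongly replicate 1 (r = 0.5598), though replicates 2 and 3 also correlated across numbers (r = 0.2145 and 0.2473). With the replicate number as a block, 8 of 10 members were called lower, against 25.0% of genes called lower and 9.94% called higher. Limma-voom on recovered reads called 1 member lower, against 1.72% of genes. The median log2 fold change of the 10 members was -0.44, beside -0.08 over all genes tested. Under median-of-ratios scaling, where the median of all genes was 0.00, the direction of every member was kept and 0 members were called. With that scaling 6 of 10 were at an unadjusted p under 0.05, against 3601 of 13980 genes in either direction. Of all-gene calls with no block, 71.5% were lower on TPM as deposited, 51.2% under upper-quartile scaling and 41.0% under median-of-ratios scaling.

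**Figure D1:**
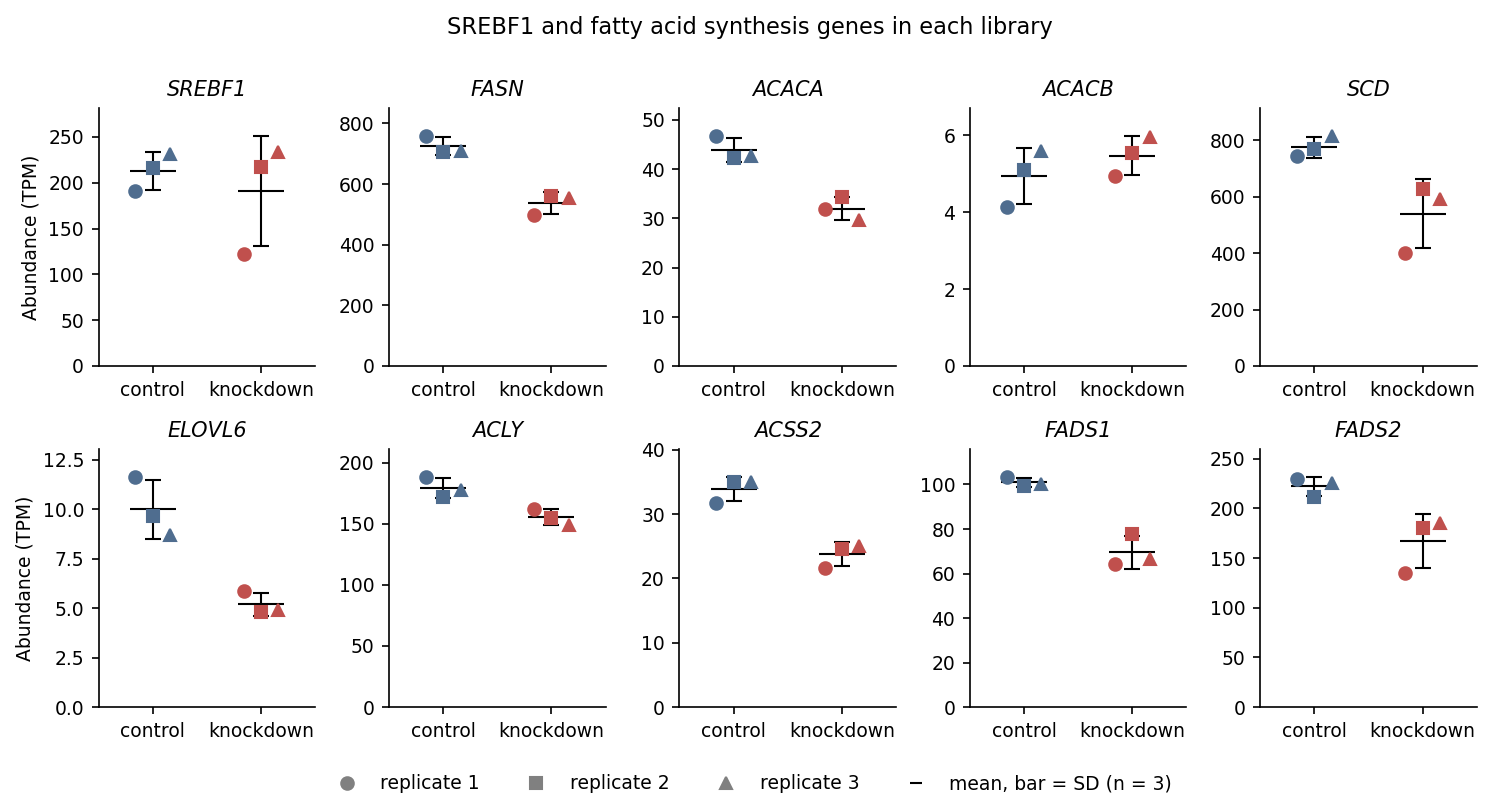
Abundance in TPM (vertical axis, from 0) of the 10 genes in the 3 control and 3 cDCBLD2 knockdown libraries, with the shape giving the replicate number and the black bar the mean ± SD (n = 3). In 8 panels all knockdown points lie below all control points, and in the SREBF1 panel only knockdown replicate 1, at 122 TPM, lies below the control points.

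SREBF1, which encodes SREBP1, lies at chr17:17810399-17837002 (GRCh38, minus strand). Its level was 122, 217 and 234 TPM in knockdown replicates 1, 2 and 3, against 191, 216 and 231 TPM in the controls. Knockdown replicate 1 was the low library, and the other 2 knockdown libraries lay within or just above the control range. The log2 fold change was -0.21 (95% interval -0.80 to 0.38, limma adjusted p = 0.623, or 0.282 with the block). Within pairs of the same number, the log2 change was -0.64, 0.01 and 0.01. Without knockdown replicate 1 the log2 fold change was 0.09, and without replicate 1 in both groups it was 0.01. A lower value was thus seen in 1 of 3 pairs, and the interval also holds changes as large as the fold changes of the lower enzymes other than ELOVL6. Of its exonic bases, 6.92% are shared with RAI1 on the opposite strand, and the strand setting of the counting is not given in the sources used here, so reads there cannot be assigned with certainty. The ratio of SREBF1 to SREBF2 was 1.74, 2.24 and 2.45 after knockdown and 2.30, 2.12 and 2.32 in control cells.

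The enzymes that supply acetyl-CoA come first. ACLY, which cleaves cytosolic citrate into acetyl-CoA, lies on chromosome 17 from 41866908 to 41930542 on the minus strand. It was at 162, 155 and 149 TPM after knockdown and at 188, 172 and 178 TPM in control cells. The groups did not overlap, and this was the narrowest separation among the 8 lower enzymes by percent of the control mean. The log2 fold change was -0.20 (95% interval -0.36 to -0.04, limma adjusted p = 0.126, or 0.0176 with the block, over a range of 0.0176 to 0.555 in 21 alternatives). ACSS2, which makes acetyl-CoA from acetate, lies on chromosome 20 from 34872146 to 34927962 on the plus strand. It was at 21.6, 24.6 and 25.0 TPM after knockdown and at 31.8, 35.1 and 34.9 TPM in control cells. All 3 knockdown libraries were under the control range, and the 3 pairs moved by -0.54, -0.49 and -0.47 on the log2 scale, close to one another. Its log2 fold change was -0.50 (95% interval -0.71 to -0.28, limma adjusted p = 0.0555, or 0.00518 with the block, over a range of 0.00197 to 0.224 in 21 alternatives).

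Acetyl-CoA carboxylases make malonyl-CoA, ACACA in the cytosol for synthesis and ACACB at the outer mitochondrial membrane, where malonyl-CoA restrains the entry of fatty acids for oxidation. ACACA lies on chromosome 17 from 37084988 to 37406818 on the minus strand. It was at 31.9, 34.3 and 29.7 TPM after knockdown and at 46.8, 42.2 and 42.7 TPM in control cells, with no overlap. ACACA had a log2 fold change of -0.45 (95% interval -0.65 to -0.24, limma adjusted p = 0.0606, or 0.00882 with the block, over a range of 0.00246 to 0.573 in 21 alternatives). ACACB lies on chromosome 12 from 109116595 to 109268226 on the plus strand. It was at 4.93, 5.54 and 5.95 TPM after knockdown and at 4.14, 5.10 and 5.59 TPM in control cells, from 310 to 580 recovered reads per library. The groups overlapped, although each knockdown library lay above the control library of the same number. ACACB had a log2 fold change of 0.13 (95% interval -0.20 to 0.46, limma adjusted p = 0.584, or 0.314 with the block, over a range of 0.0117 to 0.923 in 21 alternatives). The ratio of ACACA to ACACB was 6.46, 6.19 and 4.98 after knockdown and 11.3, 8.28 and 7.64 in control cells, so the balance between the carboxylase mRNAs was lower in every knockdown library.

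FASN, the fatty acid synthase that makes palmitate, lies on chromosome 17 from 82078333 to 82098332 on the minus strand. It was at 498, 560 and 555 TPM after knockdown and at 759, 707 and 711 TPM in control cells, from 29452 to 48563 recovered reads per library. The knockdown libraries were all below the control libraries, and the counts behind these values leave little counting error. FASN had a log2 fold change of -0.43 (95% interval -0.61 to -0.26, limma adjusted p = 0.0544, or 0.00846 with the block, over a range of 0.00464 to 0.518 in 21 alternatives). ELOVL6, the elongase that takes palmitate to stearate, lies on chromosome 4 from 110045846 to 110199199 on the minus strand. It was at 5.86, 4.81 and 4.93 TPM after knockdown and at 11.6, 9.65 and 8.71 TPM in control cells, from 278 to 537 recovered reads per library. Its groups lay well apart, and its mean after knockdown was 52.0% of the control mean, the lowest share among the 10 members. ELOVL6 had a log2 fold change of -0.82 (95% interval -1.16 to -0.49, limma adjusted p = 0.0544, or 0.00503 with the block, over a range of 0.000301 to 0.222 in 21 alternatives), which understates the change of a gene at this low level.

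The desaturases were also among the lower enzymes. SCD, the stearoyl-CoA desaturase that makes oleate and palmitoleate, lies on chromosome 10 from 100347124 to 100364834 on the plus strand. It was at 399, 627 and 591 TPM after knockdown and at 743, 768 and 816 TPM in control cells. Knockdown replicate 1 was by far the low library, and the other 2 knockdown libraries were still below the control range. The log2 fold change was -0.55 (95% interval -0.96 to -0.14, limma adjusted p = 0.118, or 0.0184 with the block, over a range of 0.00793 to 0.315 in 21 alternatives), and without knockdown replicate 1 it was -0.35 (adjusted p = 0.0224 in limma). SCD and SREBF1 were the members in which knockdown replicate 1 stood lowest against knockdown replicates 2 and 3, by -0.61 and -0.88 on the log2 scale, and FADS2 was next at -0.43.

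FADS1 and FADS2 are the delta-5 and delta-6 desaturases of polyunsaturated fatty acid synthesis and are annotated on opposite strands of chromosome 11. FADS1 runs from 61799625 to 61829318 on the minus strand and FADS2 from 61792980 to 61867354 on the plus strand. Of their exonic bases, 5.57% and 4.89% are shared with overlapping genes, FADS2 also with FEN1, so their reads cannot be fully told apart. FADS1 was at 64.1, 78.0 and 66.3 TPM after knockdown and at 103, 99.5 and 100 TPM in control cells, with a wide gap between the groups. Its log2 fold change was -0.54 (95% interval -0.75 to -0.33, limma adjusted p = 0.0533, or 0.00734 with the block, over a range of 0.00154 to 0.222 in 21 alternatives). FADS2 was at 135, 180 and 185 TPM after knockdown and at 229, 211 and 226 TPM in control cells, with knockdown replicate 1 again the lowest library. The log2 fold change of FADS2 was -0.42 (95% interval -0.73 to -0.12, limma adjusted p = 0.113, or 0.0327 with the block, over a range of 0.0106 to 0.359 in 21 alternatives), and it was -0.28 without knockdown replicate 1. The ratio of FADS1 to FADS2 was 0.474, 0.432 and 0.358 after knockdown and 0.451, 0.471 and 0.443 in control cells, and the groups overlapped.

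**Figure D2:**
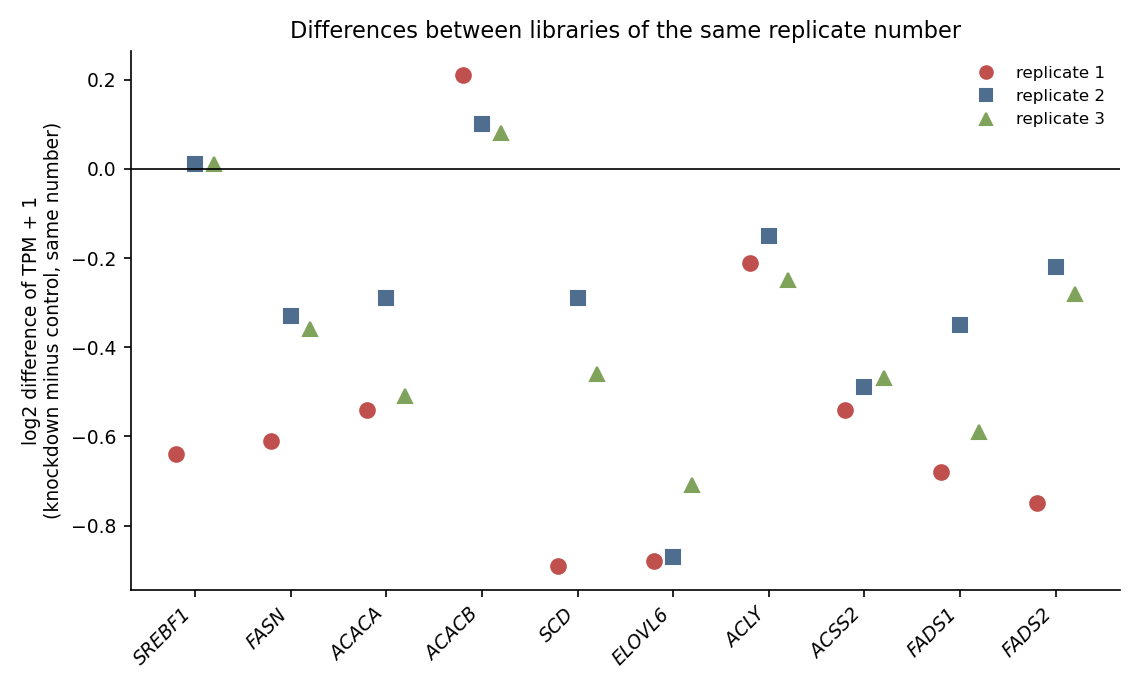
Difference in log2(TPM + 1) between the knockdown and the control library of the same replicate number (vertical axis) for each of the 10 genes, with 1 symbol for each replicate number. All 3 symbols lie below 0 for 8 genes, SREBF1 lies below 0 in replicate 1 alone, and ACACB lies above 0 in all 3.

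By pairs, 8 of 10 members were lower in all 3 pairs, against 43.7% of the genes tested. These are the 8 enzymes whose groups did not overlap, so their count by pairs follows from that separation. A two-sided exact permutation test of the 6 TPM values gave p = 0.1 for each of these 8 enzymes, the smallest that 3 against 3 libraries allow. Groups that do not overlap can give no other value in this test, so for them it adds nothing to the separation. The same exact permutation test gave p = 0.9 for SREBF1 and p = 0.5 for ACACB.

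Removing each library's trend with transcript GC content or length changed the size of several of these differences. The median log2 fold change of the 10 members stayed at -0.44 with the GC content trend removed and was -0.19 with the length trend removed. Over all genes tested these medians were 0.0 and 0.01. With the GC content trend removed, ELOVL6, whose transcript has 41.2% GC and is the most AT-rich of the 10, moved from -0.82 to -0.49. FASN, at 65.3% GC, moved the other way, from -0.43 to -0.59, and SREBF1 from -0.21 to -0.34. With that trend removed and the replicate block, 7 of 10 members were called lower, against 12.7% of genes, and SCD had an adjusted p of 0.0616 in limma. The length trend moved the long transcripts most. FASN, with 8565 bases, went from -0.43 to -0.13 and ACACA, with 9961 bases, from -0.45 to -0.12, while ACACB, with 9360 bases, went from 0.13 to 0.45. With the length trend removed and the block, ELOVL6, ACSS2 and FADS1 were called lower (3 of 10, against 17.2% of genes). ACACB was called higher (1 of 10, limma adjusted p = 0.0117), as were 2448 of all 13163 genes in that fit. SCD was then at -0.36, FADS2 at -0.25, ACLY at -0.06 and SREBF1 at -0.06. Without replicate 1 in both groups and with the block, 8 of 10 members were called lower, against 28.0% of genes. ELOVL6, ACSS2 and FADS1 were called lower in each of these 3 fits with the block.

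**Figure D3:**
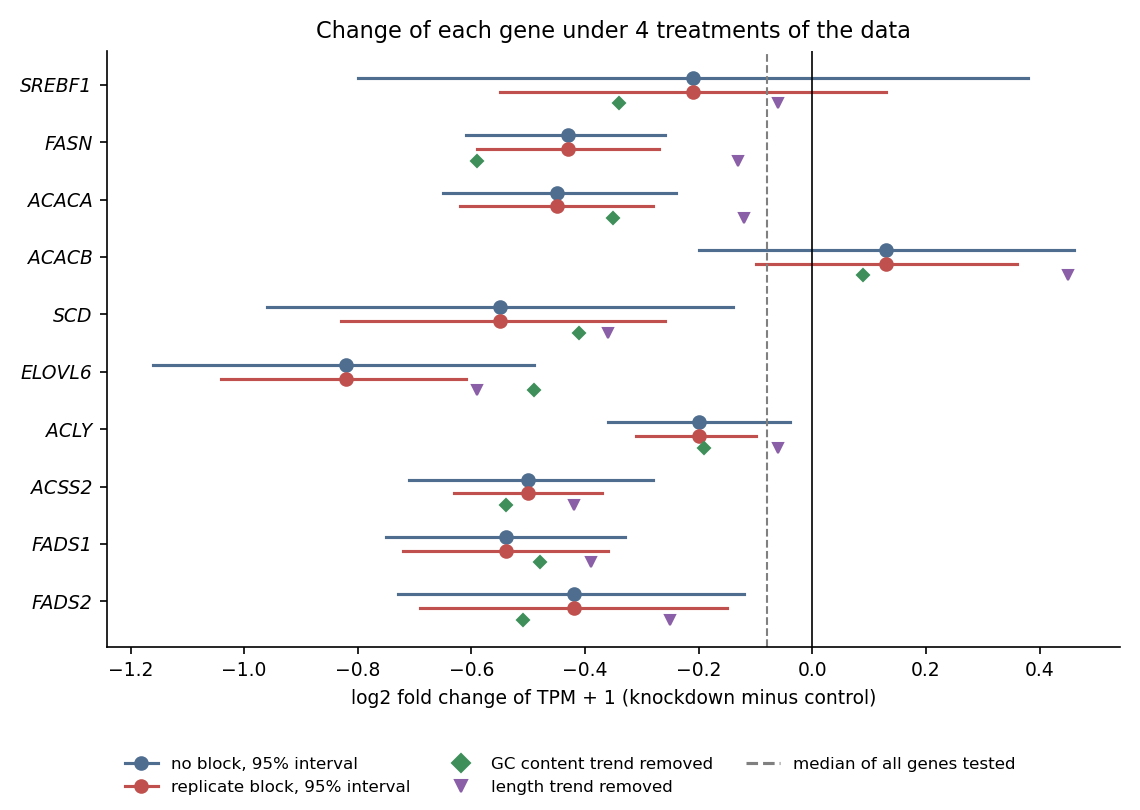
Log2 fold change of TPM + 1, knockdown minus control (horizontal axis), with 95% intervals with no block and with the replicate block, and as points with the GC content trend or the length trend removed. The dashed line is the median of all genes tested, at -0.08, and the intervals of SREBF1 and ACACB alone cross 0.

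The genes that bring SREBP to the Golgi were read next. INSIG1, which retains SCAP and is itself a known SREBP target, was at 34.8, 53.9 and 44.0 TPM after knockdown and at 108.5, 136 and 134 TPM in control cells. The groups lay far apart, and INSIG1 fell, with a log2 fold change of -1.51 (95% interval -1.92 to -1.10, limma adjusted p = 0.0444, and 2.07e-05 to 0.222 over 21 alternatives). It was the 1 of 8 genes of this list past the test with no block, against 0.880% of all genes tested. With the replicate block 3 of 8 were called lower (37.5%), against 25.0% of all genes. Named after their values were seen as the other genes of the list called with the block, MBTPS2, the site-2 protease, had a log2 fold change of -0.87 (limma adjusted p = 0.0544, or 0.00436 with the block), and LPIN1, a phosphatidate phosphatase that also restrains nuclear SREBP, one of -0.77 (limma adjusted p = 0.0555, or 0.00674 with the block). With the GC content trend removed MBTPS2 was at -0.42. SREBF2, which encodes SREBP2, was at 70, 97.1 and 95.3 TPM after knockdown and at 82.9, 102 and 99.8 TPM in control cells, with an overlap and a log2 fold change of -0.13 (limma adjusted p = 0.625). SCAP was at 109 to 122 TPM and 111 to 114 TPM, with a log2 fold change of 0.04 (limma adjusted p = 0.735), and INSIG2 was at 15.7 to 17.7 TPM and 13.6 to 16.7 TPM, with one of 0.14 (limma adjusted p = 0.437). With no block or with the block alone, neither SREBP mRNA nor SCAP nor INSIG2 passed the test. With the GC content trend removed and the block, SREBF2 was called at -0.20 (limma adjusted p = 0.0342) and INSIG2 at 0.60 (limma adjusted p = 0.0073), and INSIG2 was also called with the block at 0.22 with the length trend removed (limma adjusted p = 0.038) and at 0.24 in limma-voom (adjusted p = 0.0374).

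The list of cholesterol synthesis genes under SREBP2, the longest of the 9 lists around the members, showed the largest number of calls among them. Of its 23 genes, 3 fell with no block, against 0.880% of all genes tested called in either direction. With the replicate block 20 were lower (87.0%), against 25.0% of all genes. In 18 the groups did not overlap, with the knockdown lower, against 22.3% of all genes. The median log2 fold change was -0.54, and it was -0.4 with the GC content trend removed and -0.43 with the length trend removed. SQLE, squalene epoxidase, fell from 355, 338 and 333 TPM in control cells to 228, 186 and 165 TPM, with a log2 fold change of -0.83 (limma adjusted p = 0.0451). DHCR7, which makes cholesterol from its last precursor, fell from 207, 189 and 195 TPM to 138, 147 and 137 TPM, with a log2 fold change of -0.48 (limma adjusted p = 0.0451). Over 21 alternatives the adjusted p of SQLE and DHCR7 lay between 0.000123 and 0.222. TM7SF2, a sterol reductase, was at 0.43 (limma adjusted p = 0.361, or 0.0108 with the block). It was chosen after its values were seen as the 1 gene of the list called higher with the block. That call was lost with the GC content trend removed (limma adjusted p = 0.054) and kept with the length trend removed (limma adjusted p = 0.00778). With the GC content trend removed and the block, the lower calls of HMGCS1, SC5D, STARD4 and HSD17B7 were lost too (limma adjusted p = 0.0555, 0.0753, 0.115 and 0.78). These genes were also named after their values were seen.

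**Figure D4:**
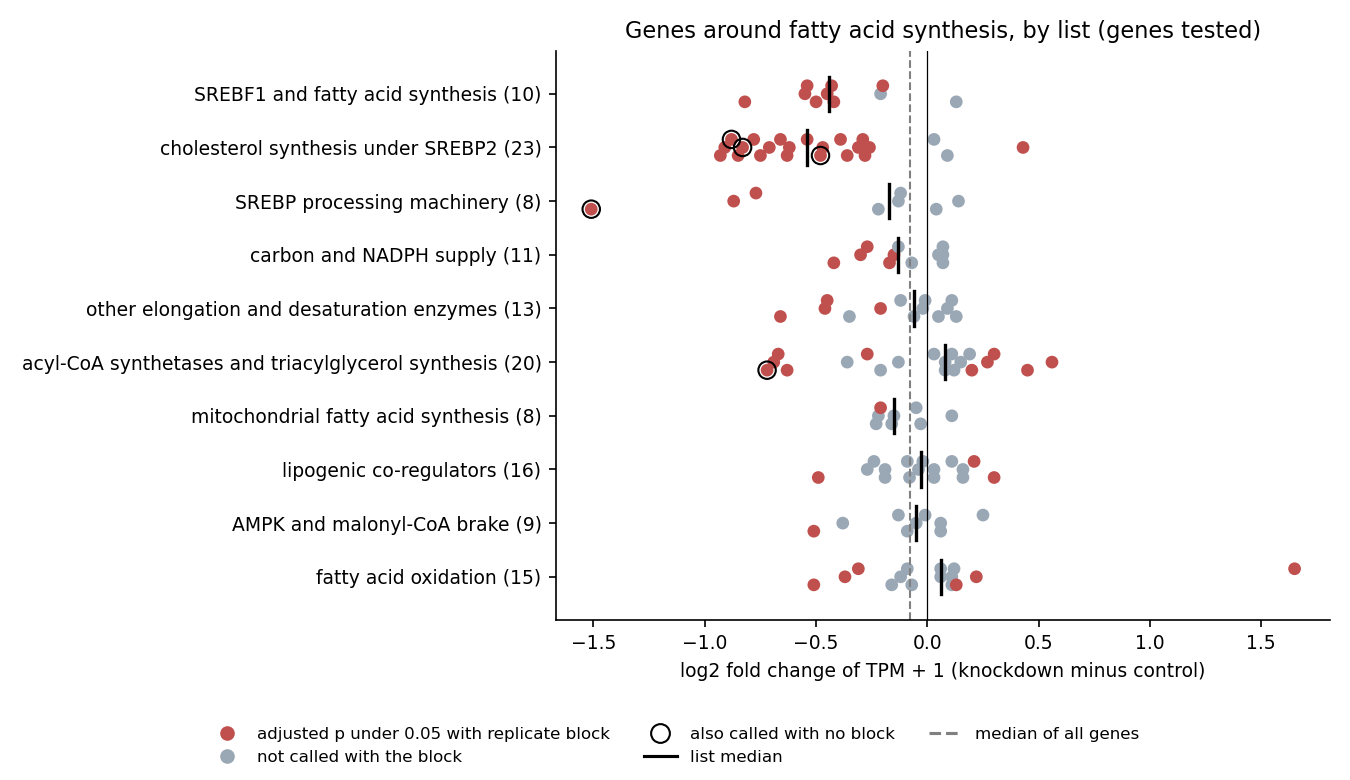
Log2 fold change of TPM + 1, knockdown minus control (horizontal axis), of each gene tested in the 10 lists, with the number tested in brackets, the list median as a black bar and the median of all genes as a dashed line. Red points pass an adjusted p of 0.05 with the replicate block and ringed points also pass with no block. The medians of the members, at -0.44, and of the cholesterol list, at -0.54, lie farther left than the other 8.

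Among 20 acyl-CoA synthetases and triacylglycerol synthesis genes tested, 1 fell with no block, and with the block 5 were lower (25.0%) and 5 higher (25.0%), around a median of 0.08. Over all genes tested the block called 25.0% lower and 9.94% higher. ACSL1, a long-chain acyl-CoA synthetase, was at 48.4, 58.1 and 53.8 TPM after knockdown and at 83.2, 89.8 and 92.7 TPM in control cells, and it fell by 0.72 on the log2 scale (limma adjusted p = 0.0444, and 0.000151 to 0.222 over 21 alternatives). ACSL3 and ACSL4, chosen as its relatives after the values were seen, had log2 fold changes of -0.67 and -0.69, and both were called with the block (limma adjusted p = 0.00436 and 0.00873). With the GC content trend removed they were at -0.26 and -0.27. PNPLA3, a lipid droplet protein known as an SREBP1 target, was at -0.63 (limma adjusted p = 0.0539, or 0.00669 with the block). On the other side, AGPAT2, which makes phosphatidic acid, was at 0.56 (limma adjusted p = 0.0736, or 0.00586 with the block). PLIN2, a coat protein of lipid droplets, was at 0.45 (limma adjusted p = 0.293, or 0.0124 with the block). PNPLA3, AGPAT2 and PLIN2 were also named after their values were seen.

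Supply of carbon and NADPH, of 11 genes tested, gave 0 calls with no block, 4 genes lower at an unadjusted p under 0.05, and 5 genes lower with the replicate block (45.5%), around a median of -0.13. Over all genes tested, 19.4% were lower at an unadjusted p under 0.05 with no block, and 25.0% were called lower with the block. ME1, the malic enzyme that makes cytosolic NADPH, was at -0.42 (limma adjusted p = 0.102, or 0.00503 with the block), and with the GC content trend removed at -0.05. IDH1, which also yields cytosolic NADPH, was at -0.27 (limma adjusted p = 0.0892, or 0.0117 with the block) and at 0.00 with that trend removed. Of the 13 other elongation and desaturation enzymes tested, 0 were called with no block and 3 were lower at an unadjusted p under 0.05. With the block 4 were lower (30.8%), near the 25.0% of all genes. ELOVL5, the elongase of polyunsaturated chains, was at -0.45 (limma adjusted p = 0.069, or 0.00675 with the block) and HSD17B12, the ketoreductase of the elongation cycle, at -0.46 (limma adjusted p = 0.0782, or 0.0107 with the block). With the GC content trend removed these were -0.13 and -0.06. The 5 genes of this list that were not tested had a mean under 1 TPM.

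Of 16 lipogenic co-regulators tested, 0 were called with no block and 2 were at an unadjusted p under 0.05. With the block 2 were higher (12.5%) and 1 was lower (6.25%). Over all 13980 genes tested, 3654 were at an unadjusted p under 0.05 with no block, and the block called 9.94% higher and 25.0% lower. SP1, the GC box factor, was at -0.49 (limma adjusted p = 0.0512, or 0.00478 with the block), and HNF4A, a hepatocyte nuclear receptor, was at 0.30 (limma adjusted p = 0.0949, or 0.0196 with the block). SP1 was at -0.27 with the GC content trend removed and at -0.22 with the length trend removed, where HNF4A was at 0.53. Of 9 genes of the AMPK and malonyl-CoA brake, 0 were called with no block, 2 were at an unadjusted p under 0.05 and 1 was lower with the block (11.1%). That was PRKAA1, a catalytic subunit of AMPK, at -0.51 (limma adjusted p = 0.124, or 0.0101 with the block), and at -0.04 with the GC content trend removed. MLYCD, which degrades malonyl-CoA, was at 0.25 (limma adjusted p = 0.189, or 0.0854 with the block), and at 0.63 with the length trend removed (adjusted p = 0.00545 with the block in limma). Of 8 mitochondrial fatty acid synthesis genes, 0 were called with no block, 0 were at an unadjusted p under 0.05 and 1 was lower with the block (12.5%). NDUFAB1, the mitochondrial acyl carrier protein, was at -0.21 (limma adjusted p = 0.242, or 0.0224 with the block), and LIAS, lipoyl synthase, at -0.23 (limma adjusted p = 0.32). The call of NDUFAB1 with the block was lost with the GC content trend removed (-0.08, limma adjusted p = 0.272) and in limma-voom on recovered reads (-0.11, adjusted p = 0.193).

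Fatty acid oxidation, which opposes synthesis, was read in 15 genes. None of the 15 passed with no block (limma, 2 at an unadjusted p under 0.05), and with the block 3 were higher and 3 lower, around a median of 0.06. EHHADH, the peroxisomal bifunctional enzyme, was at -0.51 (limma adjusted p = 0.0673, or 0.0148 with the block). With the GC content trend removed EHHADH was at -0.20, and the call with the block was lost (limma adjusted p = 0.096).

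The 9 lists held 123 genes tested, of which 5 passed the test with no block, against 0.880% of all genes tested. INSIG1, ACSL1, SQLE and DHCR7 were among these 5 genes, and all 5 were lower. In each of the 5 fits that left out knockdown replicate 2, knockdown replicate 3 or a control library, 0 of these genes and 0 members passed, as did 0 of all genes tested, with 2161 to 2803 of all genes at an unadjusted p under 0.05, while without knockdown replicate 1 a total of 36 genes of the lists were lower. With the replicate block, 43 of the 123 were lower and 11 were higher, against 25.0% and 9.94% of all genes tested. The cholesterol list alone held 20 of the 43 lower genes and 1 of the 11 higher ones.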

How the data were processed

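PolyA-Seq of HCCLM3-SR cells compared 3 cDCBLD2 knockdown and 3 control libraries, grouped by their labels. The authors deposited TPM values per gene, in which each library sums to 1000000. The submitters' processing notes name fastp 0.20.1, HISAT2 2.1.0, StringTie 2.0 and hg38, with no roles, and the study's methods name DESeq2, which was not used here. Strand and multimapping settings are not given in the sources used here.

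The 13980 genes whose mean reached 1 TPM were fitted on log2(TPM + 1) with limma 3.58.1 in R 4.3.3, using its trend option, and p-values were adjusted over all of them by Benjamini-Hochberg. A call is an adjusted p under 0.05, and a fold change is knockdown minus control on that scale, which understates changes of low genes. The design had no block. Deviations from the group means were correlated between same-numbered libraries (r = 0.5598, 0.343 and 0.3621 for numbers 1, 2 and 3, against -0.4502 to 0.2473 for unlike numbers, where replicates 2 and 3 also correlated with each other at 0.2145 and 0.2473), so the fit with the replicate number as a block is given where it changes a call. What a number marks is not given in the labels. Where a library was left out, no other was imputed.

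Ratios of TPM between libraries were used to recover whole reads: 100.00% of 17285 genes came out within 0.01 of whole numbers, and 0.00% of 2000 genes did with library factors moved by up to 10%. Totals are lower bounds and cover counting error only. Limma-voom was run on these reads for genes with at least 10 reads in 3 libraries. The recovery and the fits were tested on simulated data.

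Positions, GC content and length came from GENCODE release 29 (94.16% of genes tested had both), which may not be the authors' annotation, and GC or length trends were removed by loess with a span of 0.5. Alternatives also covered 2 other scalings, a pseudocount of 0.1, no filter, at least 5 TPM, protein-coding genes alone and each library left out. Removing the length trend with the block, and leaving out replicate 1 of both groups, were added after seeing the data. The members and lists were chosen with earlier results of these data known. Named are the members, the genes of each list that passed with no block (otherwise the 2 with the smallest adjusted p), SREBF2, SCAP, INSIG1, INSIG2 and DCBLD2, and any gene said to be named after its values were seen. Results for some further genes under this rule are not reported here. The 13 mitochondrial mRNAs fixed as a check of RNA quality were not analysed here. Python 3.11.15, pandas 2.3.3, scipy 1.17.1 and matplotlib 3.10.9 were used.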

Additional observations from a re-analysis of the deposited data

How the results depend on the processing

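With no block, 0 members were called higher, 0 members were called lower, 0 genes of the 9 lists were called higher and 5 were called lower. The replicate block gave 0, 8, 11 and 43 in that order. At least 5 TPM gave 5 members lower and 1 and 11 list genes. Protein-coding genes alone gave 5, 1 and 13, and both fits had fewer genes to adjust over. Over all genes, these fits called 238 of 10245 and 288 of 11793 lower. No filter left 0 list genes lower, with 1 of all 25278 genes called lower. Median-of-ratios scaling left 3, with 55 of 13980. Removing the GC content trend left 0 list genes lower, with 2 of all 13163 genes called lower. With so few calls, the zeros of these fits say nothing about the list genes. Removing the GC content trend with the replicate block gave 7 members lower and 16 and 29 list genes, beside 1524 and 1675 of all genes. Removing the length trend gave 2 list genes higher, and with the replicate block 1 member higher, 3 members lower and 22 and 36 list genes. Over all 13163 genes, 164 were higher with no block, and 2448 were higher and 2261 lower with it. Limma-voom on recovered reads gave 1 member lower and 2 and 9 list genes. With the replicate block it gave 1 member higher, 7 lower and 27 and 37 list genes. Over all 15018 genes, limma-voom called 193 higher and 259 lower with no block, and 2627 higher and 3081 lower with it. Leaving out replicate 1 of both groups gave 8 members lower and 13 and 38 list genes, and 8, 16 and 44 with the replicate block. Over all 13980 genes, 1353 were then higher and 3538 lower with no block, and 1583 higher and 3912 lower with it. Leaving out 1 library at a time gave 0 to 7 members lower, 0 to 3 list genes higher and 0 to 36 lower. The cause of these moves was not tested, beyond the number of genes named above.

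The sign of SREBF1 turned without knockdown replicate 1 (0.09) and without replicate 1 of both groups (0.01, with or without the replicate block), with a range of -0.38 to 0.09 over single libraries left out. The sign of SREBF2 turned without knockdown replicate 1 (0.02, in a range of -0.22 to 0.02) and with the length trend removed (0.07), that of LIAS (0.13) and SCAP (-0.09) with the GC content trend removed, where IDH1 reached 0. The other 9 members kept their sign in all 21 alternatives. Of the 210 values of the members under alternatives, 61 passed the threshold, which no member passed with no block and no other change. The 61 include 2 values of ACACB, both higher. With no block and all libraries kept, only the fits on at least 5 TPM, on protein-coding genes and on recovered reads called any member. ELOVL6, ACACB and ACSS2 rest on under 1000 reads in every library, so counting error weighs most there. With 3 libraries a group and pairing taken from numbers alone, the calls with the block depend on those numbers marking a shared source.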
